A study of Homo sapiens with 6 samples.

Results

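Messenger RNA of 35 genes of cholesterol synthesis and its control was examined in the human acute myeloid leukemia line OCI-AML2. The genes were chosen by symbol out of 58233 Ensembl gene identifiers in the deposited table. They are enzymes and targets of the SREBP transcription factors, together with fatty acid synthesis and sterol efflux genes. The choice was made with earlier results of these data known, so shares of these genes set beside those of all genes are descriptive. All 35 symbols were found, and 33 passed the filter on low counts. The 3 libraries labelled IKZF1-ko came from cells with a CRISPR knockout aimed at IKZF1, the gene of the blood transcription factor Ikaros, and the 3 labelled NT control from cells with a non-targeting control. Cells of both groups grew in RPMI 1640 medium with 20% fetal bovine serum, and no drug treatment is given in the labels. The series design names 3 lines per group and the extraction protocol cells in triplicate, so whether the replicates are separate edited lines, cultures or extractions cannot be told. The p-values below therefore reflect library-to-library spread, part of which may be technical. Counts of bulk RNA do not tell a lower share of cells with a transcript from less transcript per cell.

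Cholesterol is built from acetyl-CoA through mevalonate, the isoprenoid diphosphates and squalene, and several late steps consume molecular oxygen. When sterols in the endoplasmic reticulum run low, SCAP escorts the precursors of SREBP to the Golgi for cleavage, and the released factors switch on the sterol enzymes (mainly SREBP-2, encoded by SREBF2) and the fatty acid enzymes (mainly SREBP-1, encoded by SREBF1). INSIG1 holds SCAP back when sterols are plentiful, and oxysterols then activate the LXR receptors, which drive export of cholesterol. Serum supplies cultured cells with lipoprotein cholesterol, which keeps the pathway partly repressed.

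Total counts per library ranged from 11300519 to 14983528 in NT control and from 15250588 to 18214328 in IKZF1-ko, and 13028 genes were tested. Every IKZF1-ko library thus had more counts than every NT control library, and the part of depth in the group differences was not tested. The first principal component, with 67.6% of the variance, set IKZF1-ko replicate 1 and NT control replicate 2 apart from the other 4 libraries, and the same split was found from genes outside the pathway. These are called the outlying libraries here. No label names a batch that they share, and since the sets were found from the same counts, differences between them are described without a test. IKZF1 mRNA was at 331, 292 and 334 CPM (counts scaled to library size) in the NT control libraries, replicates 1 to 3 in order here and throughout, and at 421, 426 and 436 CPM in the libraries labelled IKZF1-ko, so it was higher in each of these than in any NT control library. Its log2 fold change was 0.42 on group alone (edgeR adjusted p = 0.61). With a term for the library set, used below, it was 0.43 (SE 0.047, edgeR adjusted p = 1.2e-05). Counts per gene show neither an edited sequence nor the protein, and directions refer to the labels. Of 9 myeloid marker genes, 6 were expressed, among them the lineage factor gene SPI1 and the surface antigen gene CD33, while ANPEP and ITGAM stayed at or below 1.18 CPM and CD34 had no count. CD3E, HBA1, EPCAM and KRT19, markers of other cell types, had no count in any library.

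On group alone, edgeR's quasi-likelihood test called 0 of the 33 tested genes, as it called 0% of all genes. At an unadjusted p under 0.05 it gave 1 of them, FDPS, against 3.5% of all genes, and DESeq2 and limma-voom also called 0. When a term for the library set stood beside the group, 5 of the 33 (15.2%) fell in IKZF1-ko and 0 rose, where 6.62% of all tested genes fell and 6.93% rose. Those that fell were FDPS, EBP and DHCR7 of sterol synthesis and FASN and ELOVL6 of fatty acid synthesis, and each fell by less than 0.3 on the log2 scale. The median log2 fold change of the 33 genes was -0.07, against 0.0022 over all tested genes, and 22 of them had a negative value. For the count of 0 rising, 2 of the 33 had an unadjusted p under 0.05 upward (STARD4 and FADS1), and DESeq2 and limma-voom with the same term also gave 0. With a surrogate variable estimated by sva instead of the term, 4 fell (HMGCS1, FDPS, EBP and DHCR7) and 0 rose, against 3.52% and 4.39% of all genes. The fall of FDPS passed in all 16 alternative fits run with the term or in its place, and that of FASN in 15, DHCR7 in 13, ELOVL6 in 10 and EBP in 7. These fits share libraries and are not independent. The fit with sets found from genes outside the pathway had the same sets, so it repeats the main fit. Only 2 genes, FDPS and FASN, fell without NT control replicate 1, without NT control replicate 3 or without IKZF1-ko replicate 3, and 3 fell without IKZF1-ko replicate 2. The same 10 fell without NT control replicate 2 and without IKZF1-ko replicate 1. In both of these fits the term takes up the outlying library that is left. The group difference then rests on the same 4 libraries, so they are not separate checks.

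**Figure D1:**
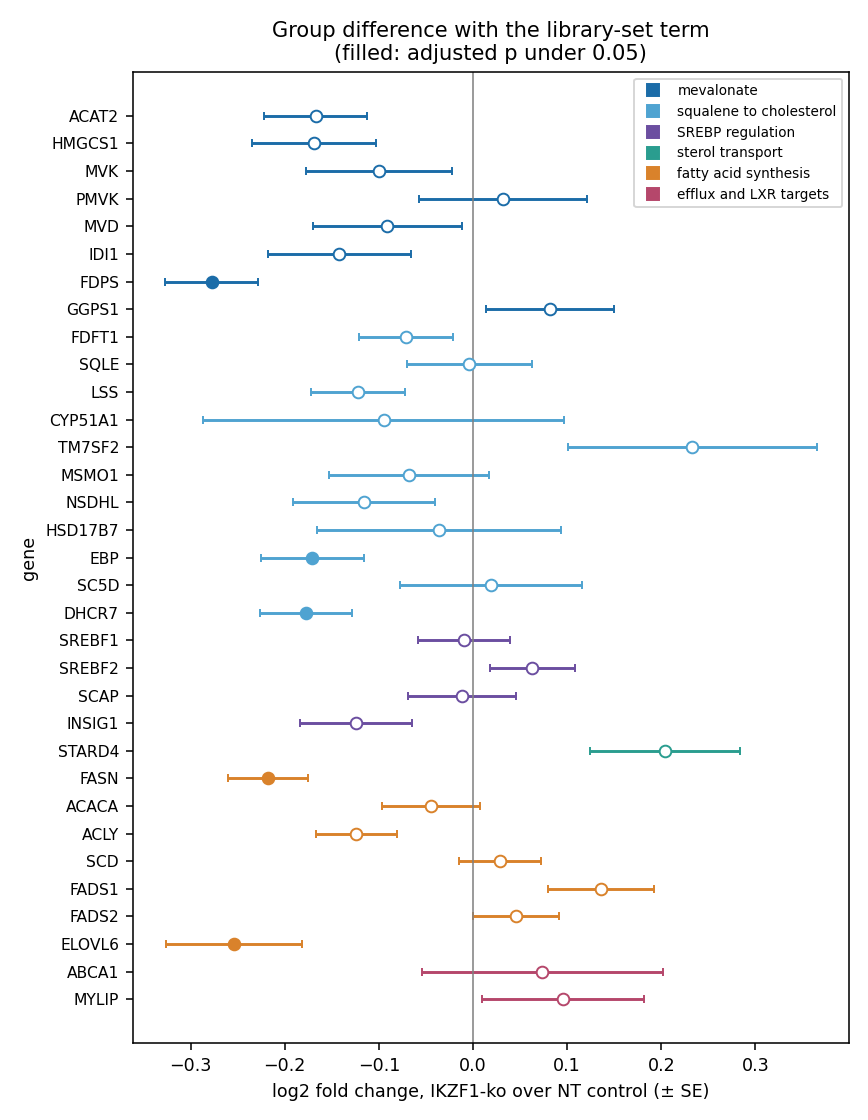
Log2 fold change of each tested gene between IKZF1-ko and NT control (x axis, bars ± SE) from the edgeR fit with a library-set term, 3 libraries per group, coloured by role and filled where the adjusted p was under 0.05. The 5 filled genes, FDPS, EBP, DHCR7, FASN and ELOVL6, all lie below 0, between -0.28 and -0.17.

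Of the 8 mevalonate pathway genes, which carry acetyl-CoA to the isoprenoid diphosphates, 1 fell and 0 rose with the library-set term. FDPS (ENSG00000160752, GRCh38 chr1:155308748-155320666), farnesyl diphosphate synthase, which makes the common precursor of sterols and prenyl groups, was at 261, 286 and 244 CPM in the NT control libraries and at 222, 216 and 214 CPM in the IKZF1-ko libraries. All 3 IKZF1-ko libraries lay below all 3 NT control libraries, an order seen in 2 members (FDPS and LSS) and in 4.07% of all tested genes, while 0 members and 5.28% of genes had the reverse order. The outlying libraries did not stand apart in FDPS. FDPS fell by 0.28 on the log2 scale (SE 0.049, edgeR adjusted p = 0.0011), from 264 ± 21.5 to 217 ± 4.20 CPM (mean ± SD, n = 3 each). On group alone its log2 fold change was -0.28 (SE 0.099).

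The other mevalonate genes did not pass. ACAT2, the cytosolic thiolase of the first step, came nearest, at 88.6, 80.7 and 88.4 CPM in NT control and 73.0, 74.6 and 81.9 CPM in IKZF1-ko (log2 fold change -0.17, edgeR adjusted p = 0.051), and its IKZF1-ko replicate 3 lay above NT control replicate 2. HMGCS1, the synthase that makes HMG-CoA, had a log2 fold change of -0.17 (adjusted p = 0.10), and IDI1, the isomerase of the isoprenoid building blocks, had -0.14 (adjusted p = 0.24). The kinase genes MVK (-0.10) and PMVK (0.03), the decarboxylase gene MVD (-0.09) and GGPS1 (0.08), which makes the diphosphate used for geranylgeranylation, had adjusted p-values of 0.45 to 0.87 in the same edgeR fit.

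Among the 11 genes from squalene to cholesterol, 2 fell and 0 rose. DHCR7 (ENSG00000172893, chr11:71428193-71452868), the reductase of the last step to cholesterol, was at 109, 151 and 110.3 CPM in the NT control libraries and at 131, 100.1 and 96.4 CPM in the IKZF1-ko libraries. The groups overlapped, since the outlying library of each group was the highest, and within each library set IKZF1-ko was the lower. DHCR7 fell by 0.18 on the log2 scale with the library-set term (SE 0.049, edgeR adjusted p = 0.022; group means 123 ± 23.5 and 109 ± 18.7 CPM). EBP (ENSG00000147155, chrX:48521158-48528716), the sterol isomerase that shifts a ring double bond, had the same order, at 67.0, 81.8 and 66.1 CPM and 73.4, 59.8 and 57.8 CPM. EBP fell by 0.17 (SE 0.055, adjusted p = 0.048), close to the threshold, with group means of 71.7 ± 8.82 and 63.7 ± 8.49 CPM.

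LSS, the cyclase that forms lanosterol, was at 137, 139.9 and 129 CPM in NT control and 122, 125 and 125 CPM in IKZF1-ko. Its groups did not overlap, and it did not pass (log2 fold change -0.12, edgeR adjusted p = 0.12). FDFT1 (squalene synthase, -0.07), SQLE (squalene epoxidase, -0.0038), MSMO1 (which oxidises sterol methyl groups, -0.07), NSDHL (-0.12) and HSD17B7 (-0.04), which encode a dehydrogenase and a reductase of sterol demethylation, SC5D (a sterol desaturase, 0.02), CYP51A1 (lanosterol demethylase, -0.09) and the sterol reductase gene TM7SF2 (0.23) did not pass either. CYP51A1 was counted at only 3.51 CPM on average. CYP51A1, TM7SF2, GGPS1, FADS1 and FADS2 share exon positions with other annotated genes on their strand, so their levels are uncertain.

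None of the 4 genes that control SREBP passed. SREBF2 was at 391, 462 and 371 CPM in NT control and 462, 404 and 409 CPM in IKZF1-ko (log2 fold change 0.06, SE 0.045, edgeR adjusted p = 0.40). For SREBF1 the values were 172, 162 and 175 CPM and 151, 179 and 176 CPM (-0.01, SE 0.049, adjusted p = 0.93). The groups overlapped in both, and the outlying library was the highest of its group for SREBF2 and the lowest for SREBF1. SCAP stood at 109, 87.1 and 101 CPM and 78.0, 108 and 112 CPM, lowest in the outlying libraries (-0.01, adjusted p = 0.93). INSIG1, itself an SREBP target, was at 108, 151 and 103 CPM and 154, 86.7 and 95.1 CPM, highest in the outlying libraries (-0.12, SE 0.059, adjusted p = 0.19). SREBP is controlled largely by cleavage of the protein, which mRNA counts do not measure.

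Of 7 fatty acid synthesis genes, 2 fell and 0 rose. FASN (ENSG00000169710, chr17:82078333-82098332), fatty acid synthase, was at 720.0, 417 and 728 CPM in the NT control libraries and at 359, 630.4 and 613 CPM in the IKZF1-ko libraries. Here the outlying library of each group was the lowest, and within each library set IKZF1-ko was again the lower. FASN fell by 0.22 on the log2 scale (SE 0.042, edgeR adjusted p = 0.0024; group means 622 ± 177 and 534 ± 152 CPM), but when sva's surrogate variable replaced that term the value was -0.13 (adjusted p = 0.11). ELOVL6 (ENSG00000170522, chr4:110045846-110199199), which elongates the saturated fatty acids made by FASN, was at 59.3, 35.9 and 61.0 CPM and 35.4, 46.6 and 47.4 CPM. It fell by 0.25 (SE 0.072, adjusted p = 0.027), and the difference lay in the 4 other libraries, the outlying ones being nearly equal. With the surrogate variable ELOVL6 did not pass (-0.19, adjusted p = 0.14).

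ACLY, which makes cytosolic acetyl-CoA from citrate, had a log2 fold change of -0.12 (edgeR adjusted p = 0.065) and ACACA, acetyl-CoA carboxylase, -0.04 (adjusted p = 0.64). The desaturase genes SCD (0.03), FADS1 (0.14) and FADS2 (0.05) had positive values that did not pass. For the efflux and LXR target genes, ABCA1, a cholesterol exporter, was at 10.6, 15.1 and 11.5 CPM and 13.1, 11.4 and 14.6 CPM (0.07, adjusted p = 0.77), and MYLIP, a ubiquitin ligase induced by LXR, had a value of 0.10 (adjusted p = 0.52). ABCG1, the other exporter, had 8 counts over the 6 libraries, and NPC1L1, which encodes the cholesterol uptake protein of the gut, had 6, and neither was tested. STARD4, a soluble sterol carrier, had a log2 fold change of 0.20 (adjusted p = 0.10), and it passed as rising without a filter on low counts and with a replicate block. That block follows replicate numbers that did not pair the libraries and leaves little to estimate spread from. In the 4 other libraries the value for STARD4 was -0.01.

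**Figure D2:**
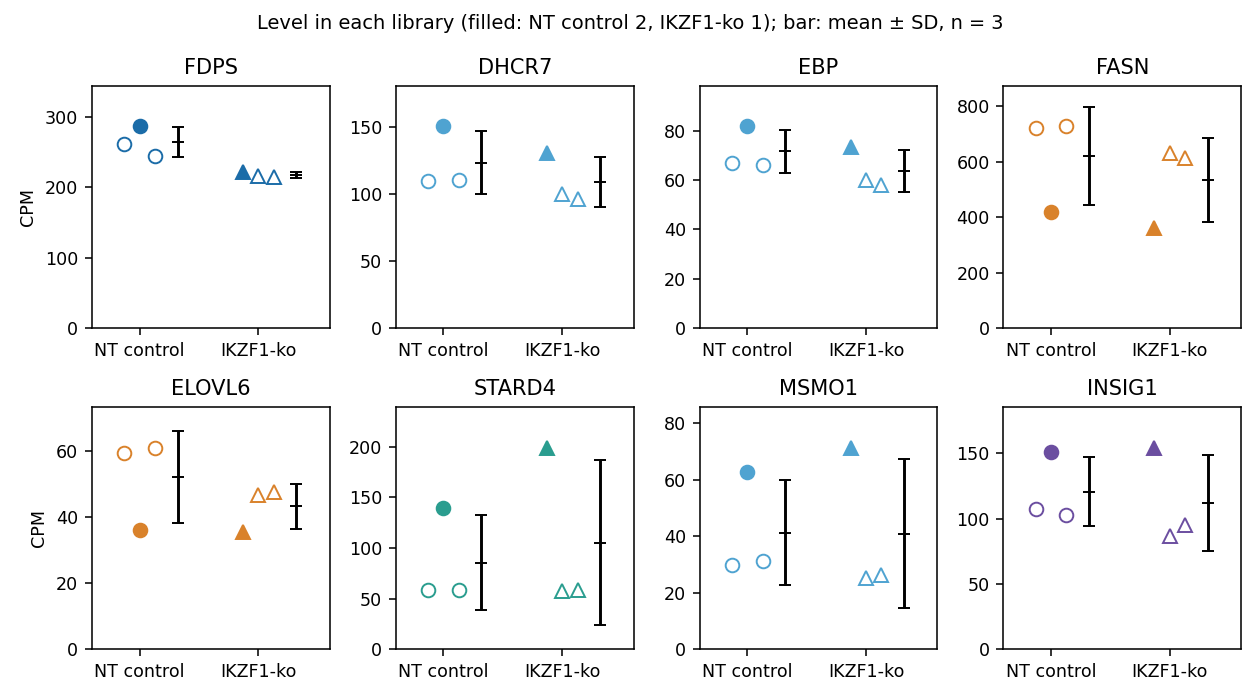
CPM of 8 genes (y axes from 0) in each library of NT control (circles) and IKZF1-ko (triangles), with the outlying libraries filled and the mean ± SD of 3 libraries beside the points. Only the FDPS groups are apart, and in the other 7 panels the filled points lie above or below all open ones.

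Larger differences lay between the library sets, where most member genes of sterol synthesis and of fatty acid synthesis went opposite ways. Of the 19 sterol synthesis genes, 14 (73.7%) were higher in both outlying libraries than in all 4 others and 0 were lower, where 32.5% of all tested genes were higher and 31.5% lower. Of the 7 fatty acid synthesis genes, 6 (85.7%) were lower and 1, SCD, was higher. The mean log2 level of the sterol genes, relative to the 6 libraries, was 0.26 and 0.25 in the outlying NT control and IKZF1-ko libraries, against -0.07 and -0.07 in the other NT control and -0.19 and -0.18 in the other IKZF1-ko libraries. For the fatty acid genes it was -0.26 and -0.26 in the outlying NT control and IKZF1-ko libraries, against 0.15 and 0.20 in the other NT control and 0.08 and 0.09 in the other IKZF1-ko libraries. The sterol mean minus the fatty acid mean was thus 0.52 and 0.51 in the outlying libraries, 1 of each group, and -0.27 to -0.22 in the others.

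STARD4 (ENSG00000164211, chr5:111496033-111512590) had the largest fold difference among the tested members. It was at 139.7 CPM in NT control replicate 2 and 199 CPM in IKZF1-ko replicate 1, and at 57.6 to 58.3 CPM in the other 4, so the mean of the outlying libraries was 2.92 times that of the rest. MSMO1 (ENSG00000052802, chr4:165327623-165343160) was at 62.7 and 71.4 CPM in them and at 25.1 to 31.2 CPM in the rest (2.39 times). HMGCS1 (ENSG00000112972, chr5:43289395-43313512) was at 192 and 204 CPM, against 109 to 139 CPM (1.61 times). These genes span the pathway from its second step to its late oxidations and the transport of its product. HSD17B7 (1.81 times), TM7SF2 (1.72), INSIG1 (1.56), IDI1 (1.38), MVD (1.37), DHCR7 (1.35) and FDFT1 (1.35) had the same order, while ACAT2, MVK, PMVK, FDPS and LSS overlapped between the sets.

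FASN was lower in the outlying libraries, at 417 and 359 CPM against 613 to 728 CPM, 0.577 times the mean of the others. ELOVL6 (0.666 times), ACACA (0.678), ACLY (0.702), FADS1 (0.764) and FADS2 (0.865) were lower too. SCD, the stearoyl-CoA desaturase gene, was at 828 and 862 CPM in the outlying libraries and 672 to 709 CPM in the others, so it went with the sterol genes. The regulators split, with SREBF2 (1.17 times) and INSIG1 higher and SREBF1 (0.894) and SCAP (0.767) lower. MYLIP was higher, at 49.8 and 63.5 CPM against 27.7 to 31.1 CPM, and ABCA1 overlapped.

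Hypoxia genes moved with the same split. Of 12 tested genes known to be induced by low oxygen, 11 were higher in both outlying libraries than in the other 4 and 0 were lower, against 32.5% and 31.5% of all tested genes. P4HA1, a collagen hydroxylase gene, was at 329 and 422 CPM there against 111 to 144 CPM, and NDRG1 at 755 and 854 CPM against 288 to 324 CPM. The mean log2 level of the hypoxia list was 0.63 and 0.80 in the outlying NT control and IKZF1-ko libraries. It was -0.47 and -0.43 in the other NT control and -0.27 and -0.25 in the other IKZF1-ko libraries. With the library-set term 4 of the 12 also rose in IKZF1-ko, against 6.93% of all tested genes. In the 4 other libraries 3 rose (against 7.64%), and with sva's surrogate variable only 1, VEGFA, rose (against 4.39%). The part of the hypoxia genes in the values of the sterol and fatty acid genes was not tested. Among the members, 7 encode enzymes that use molecular oxygen. Those of sterol synthesis, SQLE (1.28 times), CYP51A1 (1.37), MSMO1 and SC5D (1.34), and SCD (1.23) were higher in the outlying libraries, whereas FADS1 and FADS2 were lower.

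**Figure D3:**
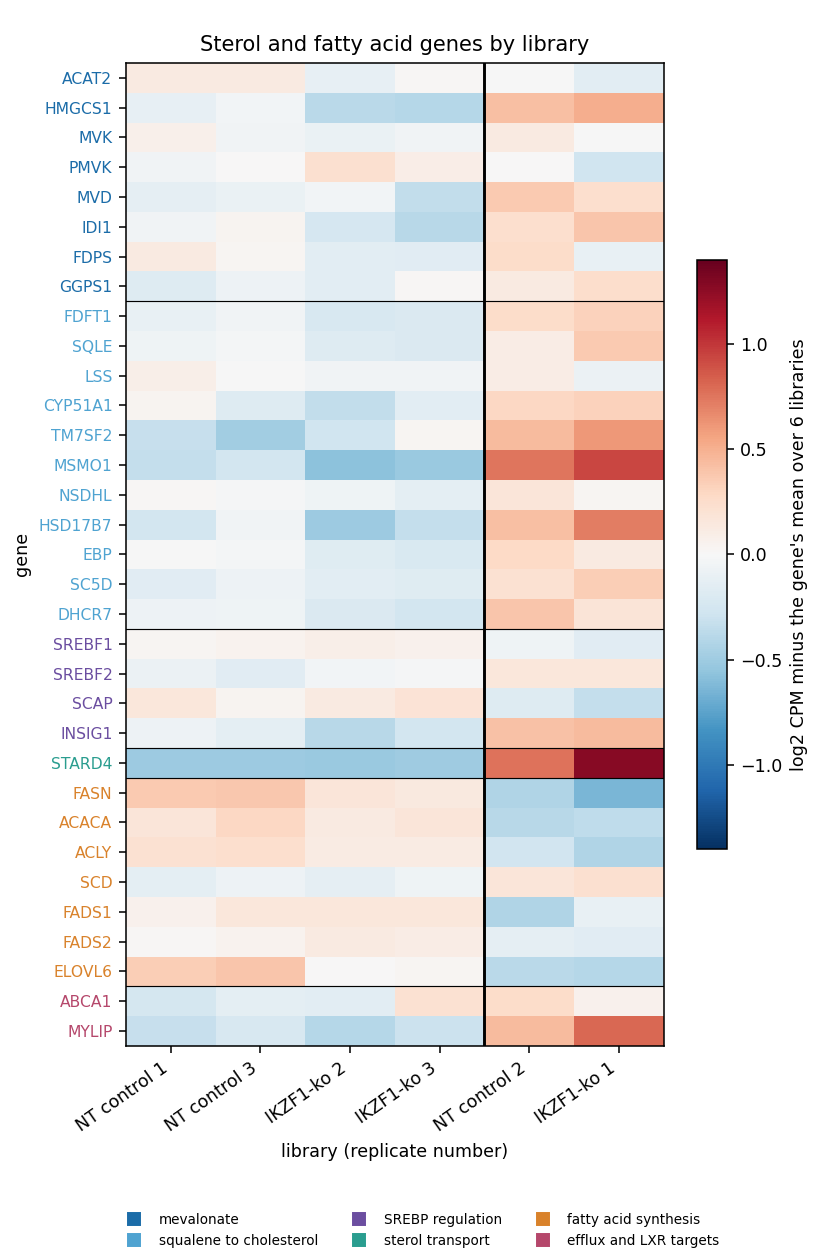
Log2 CPM of the 33 tested genes (rows, coloured by role) minus the gene's mean over 6 libraries (columns), with the outlying libraries to the right of the line. Sterol genes are mostly red and fatty acid genes other than SCD blue in those 2 columns.

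**Figure D4:**
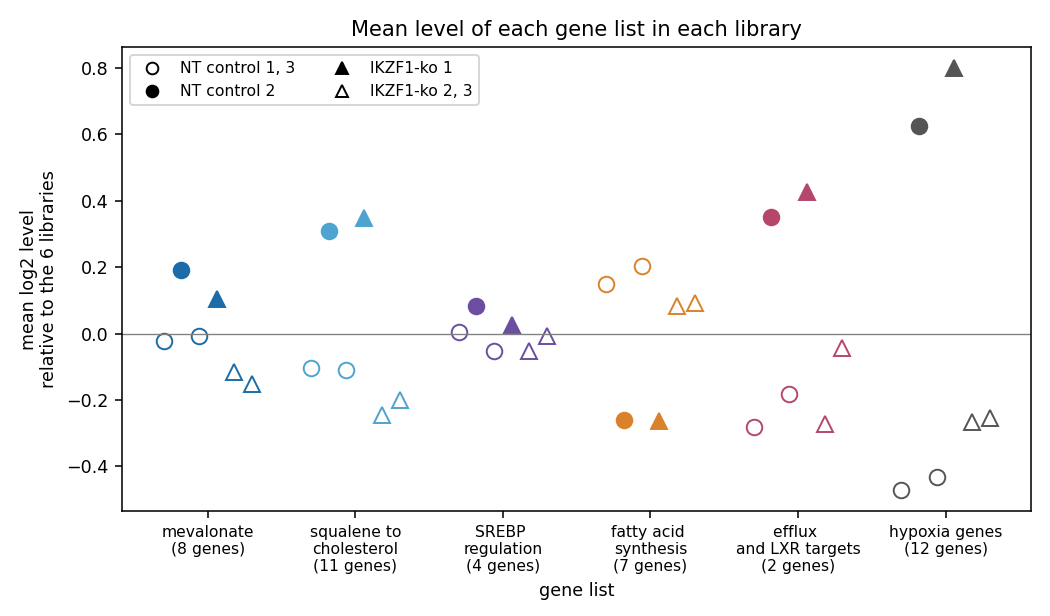
Mean log2 level of each gene list relative to the 6 libraries (y axis) in NT control (circles) and IKZF1-ko (triangles), filled for the outlying libraries. The filled points are the highest for the mevalonate, squalene to cholesterol, SREBP regulation, efflux (2 tested genes) and hypoxia lists and the lowest for fatty acid synthesis. For SREBP regulation the margin is small (0.03 in IKZF1-ko replicate 1, 0.004 in NT control replicate 1), and of its 4 genes 2 were higher and 2 lower in the outlying libraries.

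The group difference was also looked at in each library set. In the 4 other libraries, 2 against 2, edgeR called 9 of the 33 genes as falling (27.3%, against 7.1% of all genes) and 0 as rising (against 7.64%). Besides FDPS, DHCR7, FASN and ELOVL6 these were ACAT2 (-0.18), HMGCS1 (-0.31), IDI1 (-0.30), FDFT1 (-0.14) and INSIG1 (-0.22), while EBP did not pass (edgeR adjusted p = 0.053). At an unadjusted p under 0.05, 2 of the 33 were higher in IKZF1-ko there, PMVK and SREBF2. Between the outlying libraries, 1 per group and so without a replicate check, IKZF1-ko was the higher for HMGCS1, IDI1, FDFT1 and INSIG1 and the lower for FDPS, DHCR7, FASN, ELOVL6 and ACAT2. Of 23 members with a negative value in the 4 libraries, 12 had a positive difference between the outlying libraries. In the 4 libraries, as in the whole series, every IKZF1-ko library had more counts than every NT control library. Between the outlying libraries the counts were closer, at 15250588 in IKZF1-ko and 14983528 in NT control. The part of depth was not tested in either set or in the fits to all libraries.

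STARD4 had a log2 fold change of -0.01 in the 4 libraries and a log2 difference of 0.51 between the outlying ones. SQLE was at 121, 136 and 124 CPM in NT control and 163, 111 and 109 CPM in IKZF1-ko, so that its outlying IKZF1-ko library was the highest of the 6 and the other 2 of that group the lowest. The corresponding values, 4 libraries first, were -0.14 and 0.26 for SQLE, -0.31 and 0.08 for HMGCS1 and -0.30 and 0.15 for IDI1. For the genes that fell with the library-set term they were -0.23 and -0.37 (FDPS), -0.16 and -0.21 (DHCR7), -0.18 and -0.16 (EBP), -0.22 and -0.21 (FASN) and -0.36 and -0.02 (ELOVL6), alike in both sets for DHCR7, EBP and FASN and further apart for FDPS and ELOVL6. An edgeR interaction of set and group, run after these values were seen, passed for 4 of the 33 (STARD4, SQLE, HMGCS1 and IDI1; 12.1%, against 2.26% of all genes). It takes its spread from the 4 libraries alone, rests on 1 library per group in the other set, and uses sets found from the same counts, so it does not show that the group change depends on the set, and the values above are descriptions.

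**Figure D5:**
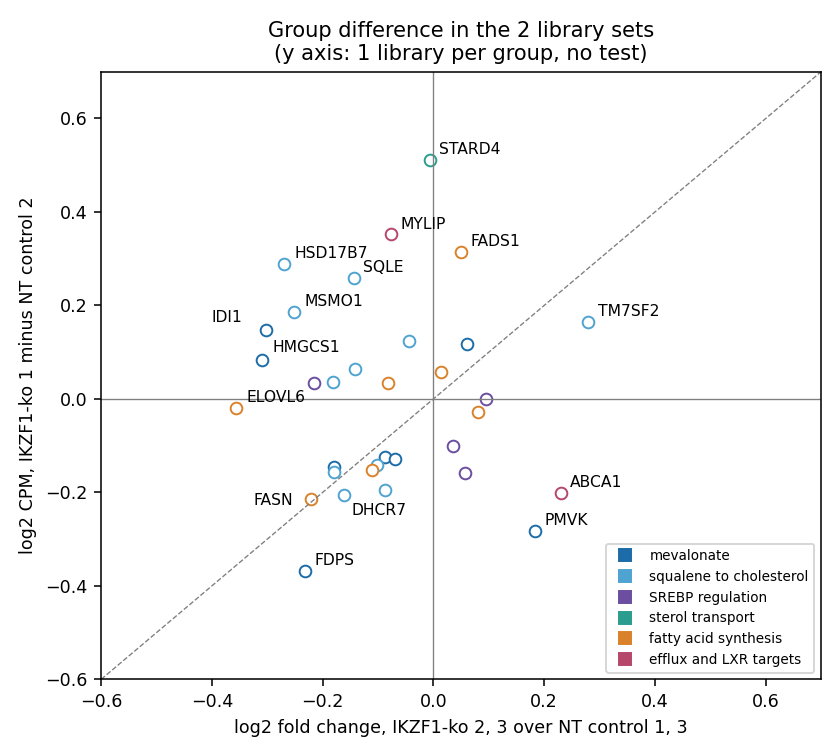
Log2 fold change in the 4 other libraries (x axis) against the log2 difference between the outlying libraries (y axis, 1 library per group, no error) for the 33 tested genes, coloured by role, with the line of equality dashed. HMGCS1, IDI1 and SQLE lie above 0 on the y axis and below 0 on the x axis, and STARD4 lies highest, near 0 on the x axis.

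Other genes of the pathway, listed by role with earlier results of these data known, went both ways between the groups. Of 57 such genes 53 were tested, and 5 rose and 6 fell with the library-set term (9.43% and 11.3%, against 6.93% and 6.62% of all tested genes), so that the rising share was near that of all genes. Between the library sets these genes did not repeat the split of the members. Of 12 other sterol and isoprenoid enzyme genes, 3 were higher in both outlying libraries and 6 lower, and of 19 other fatty acid genes 9 were higher and 6 lower, against 32.5% and 31.5% of all tested genes. Between the groups, the LXR and oxysterol genes had 2 rising and 2 falling of 6 tested. NR1H3, which encodes LXR alpha, was at 4.16, 5.87 and 4.02 CPM in NT control and 8.35, 6.93 and 8.39 CPM in IKZF1-ko, without overlap, and rose by 0.75 on the log2 scale (SE 0.16, edgeR adjusted p = 0.0041). RXRA, the partner receptor of LXR, was at 8.48, 9.15 and 8.92 CPM in NT control and 10.6, 12.4 and 12.8 CPM in IKZF1-ko, also without overlap (0.42, SE 0.12, adjusted p = 0.026). NR1H2, which encodes LXR beta, fell by 0.23 (adjusted p = 0.030), and so did LPCAT3, a phospholipid acyltransferase gene, by 0.27 (adjusted p = 0.012). The LXR targets ABCA1 and MYLIP, as given above, did not pass, and CH25H, CYP27A1, APOE and ABCG4 were too low to test.

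Of 19 other fatty acid genes, 2 rose, MID1IP1, an activator of acetyl-CoA carboxylase (0.19, adjusted p = 0.026), and the elongase gene ELOVL5 (0.16, adjusted p = 0.039). Another 2 fell, HACD3 (-0.24, adjusted p = 0.0080) and TECR (-0.22, adjusted p = 0.012), which encode a dehydratase and a reductase of the fatty acid elongation cycle in which ELOVL6 acts. TECR was at 161, 153 and 149 CPM in NT control and 121, 144 and 131 CPM in IKZF1-ko, with no overlap. Of 12 sterol and isoprenoid enzyme genes, PGGT1B, a subunit of the geranylgeranyl transferase, rose (0.30, edgeR adjusted p = 0.022), and COQ2 (-0.26, adjusted p = 0.028), an enzyme of ubiquinone synthesis, and DHDDS (-0.26, adjusted p = 0.046), of dolichol synthesis, fell. None of 8 genes of SREBP processing and sterol sensing and none of 8 genes of sterol uptake, storage and transport passed in the edgeR fit, and at an unadjusted p under 0.05 these lists had 3 and 1.

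Levels were compared between members per kilobase of merged exon length. SCD was the highest, at 138 CPM per kilobase, followed by ACLY (83.5), FDFT1 (71.3), FDPS (64.7), FASN (61.7) and SREBF2 (55.1), as means over 6 libraries. SREBF2 was above SREBF1 (21.1 CPM per kilobase). ABCA1 was among the lowest, and ABCG1 and NPC1L1 were near 0, so that of the sterol exporters listed only ABCA1 was measured above a few counts.

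Since many sterol genes shared 1 order of libraries, their promoters were searched for the letters of elements known to act with SREBP. Promoter windows of RefSeq on GRCh38.p14, from 250 bases before to 50 after each transcription start, were present for 30 of the 35 genes, and both strands were searched. ACAT2, FDFT1, SQLE, FASN and ABCG1 had no window and were not searched. A gene with several windows was counted where any of them held the letters. The CCAAT box, the element of the factor NF-Y that works beside SREBP, was present for 14 of 16 sterol synthesis genes (87.5%) and 4 of 6 fatty acid synthesis genes, against 39.7% of all 27305 genes in the table. The sterol regulatory element written as TCACNCCAC was found for 1 member, SREBF2 (1.39% of all genes), and its shorter form CACNCCAC, which lies within it, for 7 members (IDI1, SC5D, SREBF2, INSIG1, ACACA, SCD and ABCA1; 7.05% of all genes). ACGTG, the core of the hypoxia element, was found for 9 of the matched members (against 24.9% of all genes). Of these, 5 hold it within the E-box CACGTG, and INSIG1, among the 5, holds it outside the E-box as well. Letters in a window are a description, not a bound site, and absence says only that these letters are not in it.

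The 250 bases before the start are shown 5′ to 3′ in the direction of the gene, with CCAAT boxes of either strand in capitals (ATTGG where the box is on the other strand), for 4 genes that were higher in both outlying libraries than in the rest (a synthesis enzyme of an early and a late step, a regulator and a carrier), for FDPS and DHCR7, which fell in IKZF1-ko, and for ELOVL6, a fatty acid gene with no CCAAT box in its window. For HMGCS1 and DHCR7 the first of 2 listed windows is shown. On GRCh38.p14 they lie at HMGCS1 chr5:43313413-43313662, minus strand, MSMO1 chr4:165327419-165327668, plus strand, INSIG1 chr7:155297628-155297877, plus strand, STARD4 chr5:111512536-111512785, minus strand, FDPS chr1:155308616-155308865, plus strand, DHCR7 chr11:71448394-71448643, minus strand and ELOVL6 chr4:110198616-110198865, minus strand.
HMGCS1: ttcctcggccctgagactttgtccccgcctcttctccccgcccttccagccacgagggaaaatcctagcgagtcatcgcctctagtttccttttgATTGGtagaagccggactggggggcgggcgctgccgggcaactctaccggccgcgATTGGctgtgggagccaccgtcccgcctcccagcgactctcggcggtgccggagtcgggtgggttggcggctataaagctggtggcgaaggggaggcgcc
MSMO1: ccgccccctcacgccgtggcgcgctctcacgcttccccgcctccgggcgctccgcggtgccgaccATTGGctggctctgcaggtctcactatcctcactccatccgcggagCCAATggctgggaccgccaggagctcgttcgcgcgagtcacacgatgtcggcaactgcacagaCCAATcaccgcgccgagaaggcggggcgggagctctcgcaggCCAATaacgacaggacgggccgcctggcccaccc
INSIG1: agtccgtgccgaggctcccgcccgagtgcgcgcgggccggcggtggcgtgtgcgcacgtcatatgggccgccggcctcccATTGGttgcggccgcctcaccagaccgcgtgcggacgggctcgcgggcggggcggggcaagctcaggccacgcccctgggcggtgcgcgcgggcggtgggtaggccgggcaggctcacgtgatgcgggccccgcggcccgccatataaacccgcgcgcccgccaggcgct
STARD4: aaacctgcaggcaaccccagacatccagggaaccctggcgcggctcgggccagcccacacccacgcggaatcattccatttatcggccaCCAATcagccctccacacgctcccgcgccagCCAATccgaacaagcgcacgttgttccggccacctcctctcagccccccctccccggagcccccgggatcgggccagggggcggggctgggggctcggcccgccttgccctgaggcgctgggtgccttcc
FDPS: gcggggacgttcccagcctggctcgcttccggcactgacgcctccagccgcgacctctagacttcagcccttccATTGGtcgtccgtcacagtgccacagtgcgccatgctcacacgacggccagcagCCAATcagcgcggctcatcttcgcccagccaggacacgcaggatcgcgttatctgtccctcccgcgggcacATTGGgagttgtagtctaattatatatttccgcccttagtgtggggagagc
DHCR7: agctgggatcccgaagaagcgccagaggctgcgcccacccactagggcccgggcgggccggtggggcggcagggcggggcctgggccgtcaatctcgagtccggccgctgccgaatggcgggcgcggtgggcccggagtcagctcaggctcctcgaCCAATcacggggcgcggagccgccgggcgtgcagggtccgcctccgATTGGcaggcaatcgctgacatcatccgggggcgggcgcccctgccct
ELOVL6: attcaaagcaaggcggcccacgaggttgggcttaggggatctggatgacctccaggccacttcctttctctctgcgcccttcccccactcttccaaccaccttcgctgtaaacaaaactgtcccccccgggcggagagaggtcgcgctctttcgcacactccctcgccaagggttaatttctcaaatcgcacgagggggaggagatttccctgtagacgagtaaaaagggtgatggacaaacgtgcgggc

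MSMO1 holds 4 CCAAT boxes in this stretch, FDPS 3, HMGCS1, STARD4 and DHCR7 2 each, INSIG1 1 and ELOVL6 0. Genes with and without a difference between the library sets thus both held boxes: STARD4, with 2, was 2.92 times as high in the outlying libraries and FDPS, with 3, overlapped between the sets. ELOVL6 was lower in the outlying libraries, as were ACACA and ACLY, which do hold a box in at least 1 of their windows.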

How the data were processed

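Polyadenylated RNA was sequenced on a NovaSeq after a stranded mRNA library kit, per the labels' protocols. The deposited table holds read counts per gene, whole numbers with no scaling, in 1 column per library, and it has 0 columns of other samples. The submitters' processing notes list Trimmomatic, STAR and GRCh38. The sources used here name no versions, read counter or strand setting. Columns were matched by library name and groups by title. Symbols came from a gene name table and positions, exon lengths and overlaps from GENCODE release 29 on GRCh38. Of the members, CYP51A1, FADS1, FADS2, GGPS1 and TM7SF2 share exon positions with a gene on their strand, and ACAT2, ACLY, FDFT1, FDPS, HMGCS1, IDI1, LSS, MVK, SREBF1, SREBF2 and STARD4 with genes on the opposite strand only, so their values are uncertain where counting did not tell these apart. Among other pathway genes that passed, the same holds for TECR (both strands) and for NR1H3, LPCAT3, MID1IP1 and PGGT1B (opposite strand only).

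The filterByExpr function of edgeR 4.0.16 (R 4.3.3) kept 13028 genes. CPM used TMM factors, and log2 levels a prior count of 2. The quasi-likelihood test was fitted to all tested genes on group alone and with a library-set term (the sign of the first principal component), two-sided, with Benjamini-Hochberg adjustment over all tested genes and a threshold of 0.05. The SE was taken from the fold change and its F statistic. P-values with the term take the sets as known. Alternatives used DESeq2 1.42.0, limma-voom (limma 3.58.1), sva 3.50.0, other scalings and filters, a replicate block and left-out libraries. The fits were also run on simulated counts, in which the library sets were known and acted alike in both groups. That simulation does not test sets found from the counts or a group change that differs between sets. Figures used matplotlib 3.10.9.

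The members, lists and tests were chosen with earlier results of these data known. Every library's value is given for members that passed and for SREBF1, SREBF2, SCAP and INSIG1, and up to 2 other pathway genes per list and direction are named by lowest adjusted p. Other members shown by library were chosen after their values were seen.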

Additional observations from a re-analysis of the deposited data

Results flagged for a closer look

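For 4 members the difference of IKZF1-ko replicate 1 from NT control replicate 2 stood apart from the log2 fold change in the other 4 libraries. The first minus the second, as the interaction in an edgeR fit, was 0.39 for HMGCS1, 0.45 for IDI1, 0.40 for SQLE and 0.52 for STARD4. These 4 passed the threshold in that fit, but the largest value was that of HSD17B7, which did not pass. Among members that did not pass, the interaction was 0.56 for HSD17B7, -0.47 for PMVK, 0.44 for MSMO1, 0.43 for MYLIP, -0.43 for ABCA1 and 0.34 for ELOVL6. Each value rests on 1 library per group in the smaller set, the sets are not groups of the study, and the fit was added after the values were seen, so no p is given and the values are a description.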

How the results depend on the processing

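The member counts stayed at 0 called on group alone in all 13 alternatives run, and 0 rising with the library-set term in all but 2. Without a filter on low counts 1 member rose (STARD4), and with a replicate block 2 rose (STARD4 and FADS1). Against 5 falling, DESeq2 called 3, the 4 libraries alone 9 and the fit with a replicate block 11, and with each library left out in turn 2 to 10 fell. No left-out library gave a member rising. Of single member values over the 16 alternatives, which share libraries and are not independent, 477 kept their call. Another 32 passed where they had not, 19 no longer passed and 0 reversed. Over all genes, the term gave 903 rising and 862 falling, against 572 and 459 with a surrogate variable, 533 and 626 with DESeq2, 1459 and 1483 with the replicate block, and 464 to 1020 and 347 to 923 with a library left out. The replicate numbers did not pair the libraries: the correlations of same-numbered deviations from the group means were -0.66, -0.69 and 0.59, and NT control replicate 2 correlated best with IKZF1-ko replicate 1 (0.82). The replicate block thus has no known pairing behind it, and beside the group and library-set terms it leaves little to estimate spread from. EBP, which fell by 0.17 on the log2 scale, passed in only 7 of 16 alternatives, and the low counts of CYP51A1, NPC1L1 and ABCG1 limit what can be said of them.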
